A study of Homo sapiens with 2 samples.

Results

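This account concerns 9 cell surface genes, the markers used to sort tumour-initiating cells from liver cancer together with the prominin paralogue PROM2, in PLC8024 hepatocellular carcinoma (HCC) cells. Members were chosen by symbol: every probe set of the array whose platform annotation gives exactly 1 gene symbol, equal to PROM1, PROM2, CD44, EPCAM, ANPEP, THY1, ALCAM, CD47 or ICAM1. That rule found 39 probe sets of all 9 genes, among 54675 probe sets in the table. A probe set is a group of short oligonucleotides on the array that together measure a transcript.

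The series compared miR-130b with an empty vector in a human HCC cell line. Both cultures were PLC8024 cells sorted by flow cytometry as negative for CD133. The miR-130b group was CD133- PLC8024 cells transduced with lentivirus carrying miR-130b, and the source label of that sample calls the treatment a transfection. The empty vector group was CD133- PLC8024 cells transduced with the lentivirus without the microRNA. Each group holds 1 array of biotin-labelled total RNA, so no difference below has a replicate error and none was tested. What else separated the 2 cultures cannot be told apart from the microRNA. Values are log2 expression values made by the authors with RMA, and each difference is miR-130b minus empty vector on that log2 scale.

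Tumour-initiating cells are the fraction of a tumour that can seed a new one on transplantation, and in the liver they are enriched by sorting on surface proteins. PROM1 encodes CD133 (prominin-1), a cholesterol-binding glycoprotein of plasma membrane protrusions. The other markers are adhesion molecules (CD44, EPCAM, ALCAM, ICAM1, THY1), a peptidase (ANPEP) and a signal to phagocytes (CD47). A microRNA guides Argonaute proteins to messenger RNAs through its seed, bases 2 to 8 counted from its 5′ end, and lowers the level or translation of those messengers.

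The introduced microRNA is shown first because it is what differs by design between the 2 cultures. RefSeq places its gene MIR130B on chromosome 22 (GRCh38.p14, plus strand), with the 3p arm at chr22:21653354-21653375 and the 5p arm at chr22:21653316-21653336. Among the 2370 RefSeq mature microRNAs read here, 6 carry the 3p seed, miR-130b-3p itself included. The set read may lack other microRNAs with this seed, so 6 is not the size of the family. They include miR-301b-3p at chr22:21653025-21653047 (plus strand), miR-301a-3p at chr17:59151149-59151171 and miR-454-3p at chr17:59137787-59137809 (both minus strand). Mature sequences are printed 5′ to 3′ with the seed in capitals, and the 5p arm is given because it has another seed.
hsa-miR-130b-3p: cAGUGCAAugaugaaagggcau
hsa-miR-301b-3p: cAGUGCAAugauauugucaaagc
hsa-miR-301a-3p: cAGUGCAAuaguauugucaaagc
hsa-miR-454-3p: uAGUGCAAuauugcuuauagggu
hsa-miR-130b-5p: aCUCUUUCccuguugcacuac
The DNA letters that pair with the shared 3p seed are TTGCACT. Transcript sequences of the 9 genes were not used here, so their messengers were not searched for these letters.

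PROM1, EPCAM and CD44 were lower in the miR-130b array, PROM1 and EPCAM by more than 2-fold in their only probe sets and CD44 by 1.38-fold to 4.01-fold in its measured ones. PROM2, ANPEP, THY1, ALCAM, CD47 and ICAM1 differed by less than 1.5-fold in every probe set. No probe set of the 9 genes was 1.5-fold higher. Each gene is represented by its brightest measured probe set, the one with the highest mean of both arrays among those whose brighter array reached 4.88, the median level over both arrays with control probe sets left out. By that rule 2 of the 9 genes were at least 1.5-fold lower (0.58 on the log2 scale), against 2.68% of 13260 measured genes, and 0 were at least 1.5-fold higher, against 0.294%. EPCAM reached 4.88 in the empty vector array only and so had to be lower in the miR-130b array. The same holds for every measured CD44 probe set except 204489_s_at, which differed by -0.47. The median difference of the 9 genes was -0.04, and that of all measured genes was 0.03.

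**Figure D1:**
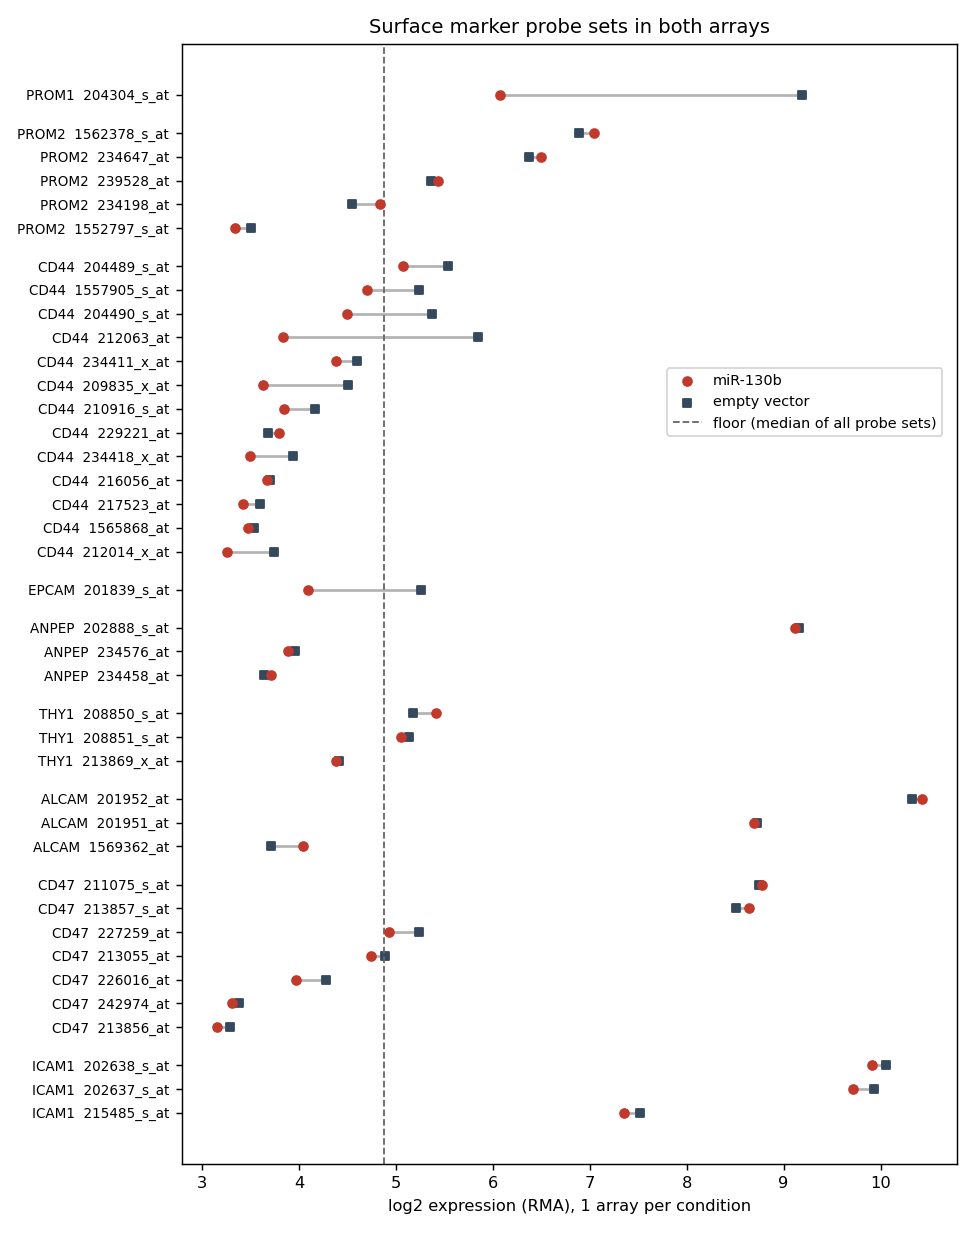
Log2 expression of the 39 probe sets of the 9 surface markers in the miR-130b array (red circles) and the empty vector array (dark squares), with 1 array per condition and a dashed line at the floor of 4.88. PROM1 spans 6.07 in miR-130b and 9.19 in empty vector, CD44 lies to the left in miR-130b in 12 of 13 probe sets, and the circles and squares of ANPEP, ALCAM and ICAM1 nearly coincide above the floor.

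All 9 genes reached the floor, but not all of their probe sets did. Of the 39 probe sets, 21 were measured, and 16 of these stood at or above the floor in both arrays. The other 5, 3 of CD44 and 1 each of EPCAM and CD47, passed through the empty vector array only, and so had to be lower in the miR-130b array. Of the 16, PROM1 was the 1 probe set at least 1.5-fold lower, and 9 had a difference below 0. Among all 22093 probe sets with 1 gene symbol under that same filter, 2.02% were at least 1.5-fold lower and 44.2% had a difference below 0. Over all 39 probe sets without a floor, 28 were lower in the miR-130b array and 11 higher, where 44.5% of the 41091 probe sets with 1 gene symbol were lower. At least 1.5-fold lower were 5 of the 39, namely PROM1, EPCAM and 3 of CD44, against 1.83% of the 41091. Probe sets of a gene measure the same RNA and are not replicates.

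PROM1, the gene of the sort marker itself, had 6.07 with miR-130b and 9.19 with empty vector in probe set 204304_s_at. The difference was -3.12, or 8.71-fold lower, the 19th lowest of 13260 measured genes. The central 95% of measured genes lay between -0.62 and 0.39. No second PROM1 probe set was there to set beside it, and the suffix _s_at marks probes that can match more than 1 transcript. The PROM1 signal of the empty vector cells, sorted as lacking CD133 protein, stood above 6.98, the 75th percentile of all probe sets, while that of the miR-130b cells lay between the floor and that level. The sort was made on a surface protein and the array measures RNA.

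RefSeq gives PROM1 4 transcription starts with a promoter window in the table, all on the minus strand of chromosome 4, and the array probe set does not tell which start was used. They are shown because PROM1 has the largest difference of the 9 genes. Each window runs from 250 bases before a start to 50 bases after it, in GRCh38.p14, 5′ to 3′ on the gene's strand. Capitals mark matches on either strand to 8 short motifs: the GC box GGGCGG, the CAAT box CCAAT, the TATA box TATAAA, the E-box CACGTG, the AP-1 site TGANTCA, the TCF/LEF core CTTTGA, the RBPJ core GTGGGAA and the hypoxia response core ACGTG, which every E-box also holds. The windows lie at chr4:16083974-16084273 (start 1), chr4:16083680-16083979 (start 2), chr4:16083287-16083586 (start 3) and chr4:16076069-16076368 (start 4), and those of starts 1 and 2 overlap at their edges.
PROM1 start 1: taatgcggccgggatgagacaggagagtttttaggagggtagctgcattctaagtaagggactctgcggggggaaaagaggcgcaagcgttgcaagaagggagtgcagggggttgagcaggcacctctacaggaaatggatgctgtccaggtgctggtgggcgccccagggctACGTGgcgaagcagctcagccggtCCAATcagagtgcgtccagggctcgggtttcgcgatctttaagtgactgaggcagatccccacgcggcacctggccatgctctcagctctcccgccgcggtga
PROM1 start 2: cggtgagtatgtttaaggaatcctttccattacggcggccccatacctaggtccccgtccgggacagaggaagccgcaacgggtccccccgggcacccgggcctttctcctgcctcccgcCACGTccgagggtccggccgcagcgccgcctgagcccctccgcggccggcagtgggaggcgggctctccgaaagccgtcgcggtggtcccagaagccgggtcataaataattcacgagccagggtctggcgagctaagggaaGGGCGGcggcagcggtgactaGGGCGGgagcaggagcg
PROM1 start 3: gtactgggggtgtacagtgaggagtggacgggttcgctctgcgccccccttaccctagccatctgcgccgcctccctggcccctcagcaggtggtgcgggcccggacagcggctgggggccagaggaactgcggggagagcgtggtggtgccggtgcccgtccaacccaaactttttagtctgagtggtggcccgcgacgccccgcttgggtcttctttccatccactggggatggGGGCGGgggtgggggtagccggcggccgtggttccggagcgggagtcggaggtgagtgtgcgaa
PROM1 start 4: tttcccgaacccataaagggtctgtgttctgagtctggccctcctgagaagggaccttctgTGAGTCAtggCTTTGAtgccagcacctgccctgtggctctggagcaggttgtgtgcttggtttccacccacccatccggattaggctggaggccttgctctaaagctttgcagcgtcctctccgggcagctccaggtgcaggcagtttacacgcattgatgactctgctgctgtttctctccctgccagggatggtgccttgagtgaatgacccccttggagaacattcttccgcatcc

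Starts 1, 2 and 3 had a GC content of 60.7%, 68.7% and 69.0%, and start 4 had 56.3%, where the median of 35116 windows was 58.7%. The ratio of observed to expected CpG pairs was 0.68, 0.91 and 0.69 in starts 1 to 3 and 0.25 in start 4, so start 4 is the CpG-poor one. Start 1 held 1 CCAAT match and 1 hypoxia response core, start 2 held 2 GC boxes and 1 hypoxia response core, and start 3 held 1 GC box. Start 4 held 1 AP-1 match and 1 TCF/LEF core. Of all windows, 45.0% held a GC box, 34.6% CCAAT, 21.4% the hypoxia response core, 12.9% the TCF/LEF core, 11.5% the TATA box, 7.71% the AP-1 site, 7.26% the E-box and 6.25% the RBPJ core. These matches describe letters, and no binding was measured.

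PROM2 encodes prominin-2, the paralogue of CD133 found on epithelial cells, and it did not share the difference of PROM1. Its brightest probe set 1562378_s_at had 7.04 with miR-130b and 6.89 with empty vector. Probe set 234647_at had 6.50 in miR-130b and 6.38 in empty vector, and 239528_at had 5.43 in miR-130b and 5.37 in empty vector. All 3 measured probe sets were thus slightly higher with miR-130b, by 0.06 to 0.15. The 2 dim ones differed by 0.29 and -0.16. The single PROM2 promoter window has a GC content of 63.3% and an observed to expected CpG ratio of 0.20.

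EPCAM encodes a homophilic adhesion molecule of epithelial and hepatic progenitor cells, and was the other gene with a single probe set and a decrease beyond 2-fold. Probe set 201839_s_at had 4.09 with miR-130b and 5.25 with empty vector. The difference was -1.16, or 2.24-fold lower, and the gene ranked 164th from the lowest of 13260. EPCAM lay near the floor in the empty vector array and under it in the miR-130b array. Having passed through the empty vector array only, it had to be lower with miR-130b. The size of a fold is uncertain at such levels, and this was not tested.

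CD44, the hyaluronan receptor whose variable exons give many splice forms, had 13 probe sets, of which 12 were lower in the miR-130b array. Of 39 genes with at least 10 probe sets, 1 other had as large a share of lower probe sets. This tally is not one of independent values, because the probe sets measure RNA of the same gene. Of the 13, only 204489_s_at stood at or above the floor in both arrays, and the other measured ones had to be lower in the miR-130b array. Probe set 212063_at had 3.84 with miR-130b and 5.84 with empty vector, 4.01-fold lower and the highest CD44 value in either array. Probe set 204490_s_at had 4.49 in miR-130b and 5.37 in empty vector, a difference of -0.88. Probe set 1557905_s_at had 4.70 in miR-130b and 5.24 in empty vector, a difference of -0.54.

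The brightest CD44 probe set by the mean of both arrays, 204489_s_at, had 5.07 in miR-130b and 5.53 in empty vector. Its difference of -0.47 was under 1.5-fold and ranked 473rd from the lowest of 13260 genes. The size of the CD44 difference therefore depends on the probe set that stands for the gene: it was -2.00 with the probe set of the highest single value and -0.97 as the mean of the 4 measured ones. Of the 9 dimmer probe sets, all under the floor, 209835_x_at had 3.63 in miR-130b and 4.50 in empty vector, a difference of -0.87. Only 229221_at of the 13 was higher in miR-130b, by 0.12 and below the floor. Which splice forms each probe set reads was not analysed here.

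The CD44 promoter window, at chr11:35138921-35139220 on the plus strand of GRCh38.p14, is given because CD44 was lower across nearly all of its probe sets. Its GC content was 63.3% and its observed to expected CpG ratio 0.63. It held 2 GC boxes and 1 hypoxia response core, in capitals.
CD44 start: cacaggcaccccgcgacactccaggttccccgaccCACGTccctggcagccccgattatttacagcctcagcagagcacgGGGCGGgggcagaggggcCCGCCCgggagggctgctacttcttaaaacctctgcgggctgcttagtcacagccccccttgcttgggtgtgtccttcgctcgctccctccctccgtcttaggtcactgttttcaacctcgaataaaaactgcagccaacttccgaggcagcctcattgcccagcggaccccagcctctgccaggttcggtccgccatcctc
Of the 9 genes 7 had promoter windows in the table, and EPCAM and THY1 were named only.

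**Figure D2:**
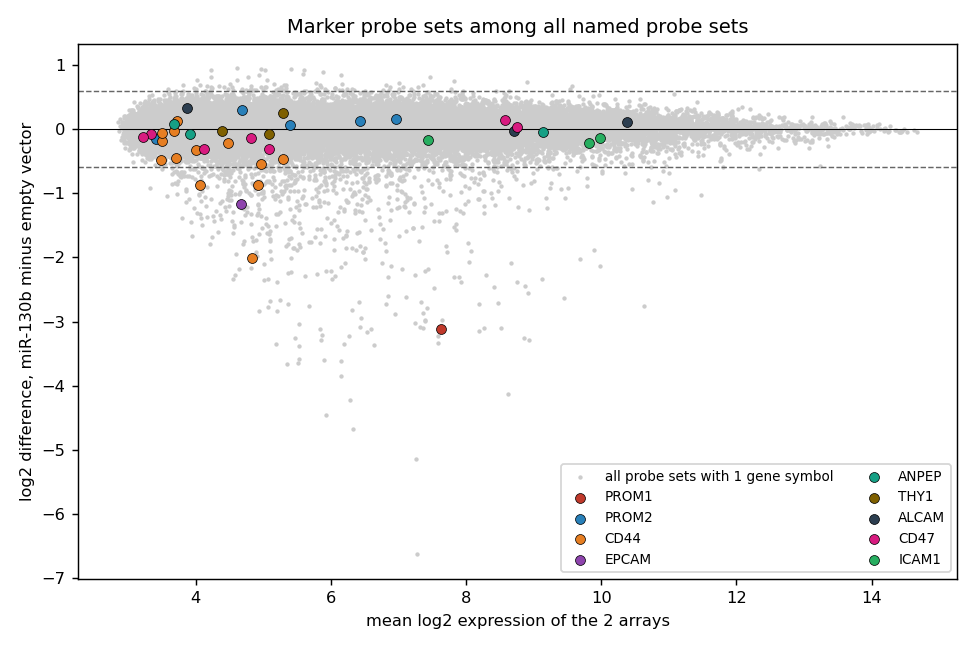
Log2 difference, miR-130b minus empty vector, against the mean log2 expression of both arrays for the 41091 probe sets with 1 gene symbol (grey), with the probe sets of the 9 markers in colour and dashed lines at 1.5-fold. PROM1 at -3.12, EPCAM at -1.16 and 3 CD44 probe sets down to -2.00 lie below the lower line, while the other 6 markers lie within the lines.

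ICAM1, the adhesion receptor that leukocyte integrins bind, was bright in both arrays and slightly lower with miR-130b in all 3 probe sets. Probe set 202638_s_at had 9.91 with miR-130b and 10.06 with empty vector. Probe set 202637_s_at had 9.71 in miR-130b and 9.93 in empty vector, and 215485_s_at had 7.35 in miR-130b and 7.52 in empty vector. Their differences ran from -0.22 to -0.15, close to 0.20, the pooled SD between measured probe sets of the same gene over 6047 genes. That SD is taken over the differences of probe sets that can read different splice forms, and it holds no variation between replicate cultures.

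ANPEP encodes CD13, aminopeptidase N, a zinc peptidase of the hepatocyte canalicular membrane. Its measured probe set 202888_s_at had 9.12 with miR-130b and 9.16 with empty vector, a difference of -0.04. The 2 others lay under the floor and differed by -0.08 and 0.08. ALCAM, the CD6 ligand CD166, had 10.43 in miR-130b and 10.32 in empty vector in 201952_at. In 201951_at ALCAM had 8.70 in miR-130b and 8.73 in empty vector. The dim ALCAM probe set 1569362_at differed by 0.33, from values of 4.04 in miR-130b and 3.71 in empty vector.

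CD47, which signals through SIRPA on phagocytes to inhibit engulfment, gave opposite signs in bright and dim probe sets. Probe set 211075_s_at had 8.78 with miR-130b and 8.74 with empty vector, and 213857_s_at had 8.64 in miR-130b and 8.50 in empty vector. Probe set 227259_at had 4.92 in miR-130b and 5.24 in empty vector, a difference of -0.32, and 213055_at had 4.74 in miR-130b and 4.89 in empty vector. The 3 CD47 probe sets under the floor were all lower, by differences from -0.31 to -0.08. The bright probe sets differed by 0.04 and 0.14, less than 0.20, the pooled SD between probe sets of a gene. Probe set 213055_at reached the floor in the empty vector array only and so had to be lower. The sign of CD47 thus differed between probe sets, and no direction is read from it.

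THY1 encodes CD90, a glycolipid-anchored immunoglobulin-family protein also found on fibroblasts. Probe set 208850_s_at had 5.42 with miR-130b and 5.17 with empty vector, a difference of 0.24. Probe set 208851_s_at had 5.05 in miR-130b and 5.13 in empty vector, a difference of -0.08. THY1 thus stood close to the floor in both arrays with no shared sign. Fibroblast and stellate markers, 4 of 6 measured, had 1 at least 1.5-fold lower, against 2.68% of all measured genes. This was COL1A2, with 4.90 in miR-130b and 7.98 in empty vector. DCN, COL1A1 and PDGFRB each differed by -0.08 in the brightest probe set, and COL1A1 ran from -1.68 to 0.38 over its measured ones. The summed log2 value of the measured markers, 22.4 in miR-130b and 25.8 in empty vector, thus differed mostly through COL1A2. The fibroblast markers COL3A1 and LUM lay under the floor, and the part of such cells in the marker differences was not tested.

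The labelled cell type was checked on 9 hepatocyte markers. Of the 8 with a probe set all were measured, among them SERPINA1 at 14.16 with miR-130b and 14.07 with empty vector and TF at 13.70 in miR-130b and 13.67 in empty vector. Of these 8, 2 were at least 1.5-fold lower, against 2.68% of all measured genes. Among the 8, 3 had a difference below 0 and the median was 0.02. TTR had 5.92 in miR-130b and 9.26 in empty vector. ALB, the serum albumin gene, had 10.96 in miR-130b and 11.99 in empty vector, with differences from -2.38 to -1.03 over its 3 measured probe sets. All 3 epithelial markers were measured and had differences below 0, with a median of -0.82 and a summed log2 value of 29.8 in miR-130b and 32.0 in empty vector. Of these 3, 2 were at least 1.5-fold lower, against 2.68% of all measured genes. A difference below 0 was found in 44.5% of the 41091 probe sets with 1 gene symbol. The keratin gene KRT8 had 10.45 in miR-130b and 11.50 in empty vector, the E-cadherin gene CDH1 had 6.16 in miR-130b and 6.98 in empty vector, and KRT18 differed by -0.27. Their part in the EPCAM difference was not tested. Of 6 leukocyte markers 4 had a probe set, and PTPRC, CD3E and CD14 among them lay under the floor in both arrays. LYZ was the 1 measured, with 9.46 in miR-130b and 9.77 in empty vector. Its 2 measured probe sets had differences from -1.72 to -0.32. Of 4 endothelial markers VWF and CDH5 lay under the floor, and PECAM1 and TEK were measured, neither beyond 1.5-fold. The 3′ to 5′ signal ratio, which grows as RNA is degraded or copied short, was 2.41 in miR-130b and 1.95 in empty vector for ACTB and 1.52 in miR-130b and 1.37 in empty vector for GAPDH. Its part in the PROM1, EPCAM and CD44 differences was not tested. Fewer cells that carry a transcript and less of it per cell cannot be told apart in these bulk samples.

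Other genes of these markers' biology were followed in 4 lists. Of 25 further markers of liver progenitor and tumour-initiating cells, 19 were measured, of which 3 passed 1.5-fold downward and 0 upward, against 2.68% and 0.294% of all measured genes, with a median of -0.11. KRT19, a keratin of bile duct cells, had 4.02 with miR-130b and 7.05 with empty vector. LGR5, a receptor for R-spondins on stem cells, had 3.66 in miR-130b and 4.93 in empty vector. Without the floor another LGR5 probe set stands for the gene, with a difference of -0.28. Both KRT19 and LGR5 passed the floor through the empty vector array only, so they had to be lower in the miR-130b array. CD9, a tetraspanin, had 5.57 in miR-130b and 6.57 in empty vector. The oncofetal gene AFP differed by -0.57, just under 1.5-fold.

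Of 28 listed ligands and extracellular partners, 23 were measured, 5 passed 1.5-fold downward and 0 upward, against the same 2.68% and 0.294%, and the median was -0.03. SPP1, which encodes osteopontin, a CD44 ligand, had 5.52 with miR-130b and 7.43 with empty vector. THBS1, thrombospondin-1, a ligand of CD47, had 5.33 in miR-130b and 7.02 in empty vector, and its 3 measured probe sets differed by -1.69 to -2.72, of which 201108_s_at alone stood above the floor in both arrays and the others passed through the empty vector array only. ITGAV, the integrin alpha-V chain, had 10.21 in miR-130b and 11.34 in empty vector, and CD9 and THBS4 were the others. SIRPA, the phagocyte receptor of CD47, differed by -0.31, a value chosen for mention after it was seen. The highest difference of this list was 0.55, of SRGN, with 5.07 in miR-130b and 4.52 in empty vector. SRGN passed the floor through the miR-130b array only, so it had to be higher there.

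Processing enzymes and cytoplasmic partners were mostly within 1.5-fold, with a median of -0.03 over 22 measured of 26. Of the 22, 1 passed 1.5-fold downward and 1 upward, against 2.68% and 0.294% of all measured genes. FHL2, a LIM protein that binds the released intracellular domain of EPCAM, was 10.4-fold lower, with 4.96 with miR-130b and 8.33 with empty vector. LEF1, a DNA-binding partner of that domain, was 1.51-fold higher, with 8.93 in miR-130b and 8.34 in empty vector, but its difference of 0.59 became 0.56, under 1.5-fold, after loess centring of the arrays. RDX, which encodes the membrane to actin linker radixin, differed by 0.29 and PIK3R1, a regulatory subunit of phosphoinositide 3-kinase, by -0.29. The RDX probe sets did not share a sign.

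Protein relatives of the members showed no gene beyond 1.5-fold among 12 measured of 18, and their median was -0.04. Of all measured genes 2.68% passed 1.5-fold downward and 0.294% upward, so a count of 0 among so few sets them apart in no way. ICAM2 came nearest with -0.58 and -0.40 in its 2 measured probe sets, and passed 1.5-fold with -0.59 after loess centring. BCAM, the Lutheran adhesion molecule, differed by -0.53 in one and 0.26 in the other. The aminopeptidase gene ERAP2 differed by 0.34 and the endothelial adhesion gene VCAM1 by 0.20. The lists share members such as CD9 and L1CAM, so they are not independent.

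**Figure D3:**
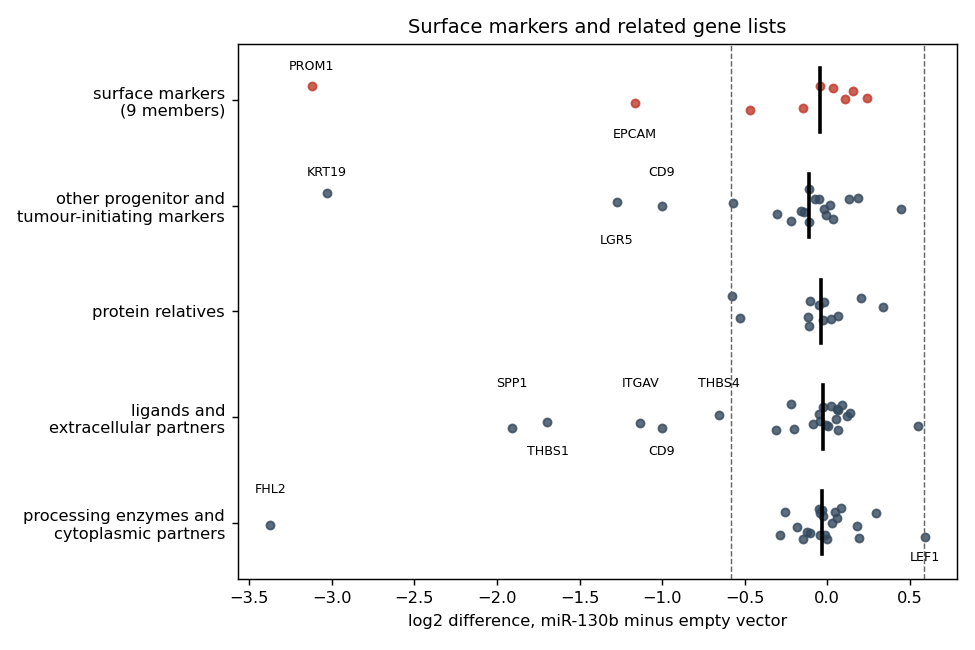
Log2 difference, miR-130b minus empty vector, of each measured gene (points, brightest probe set) for the 9 surface markers (red) and 4 related lists (dark), with the median of each group as a bar and dashed lines at 1.5-fold. Genes beyond 1.5-fold are named: PROM1 and EPCAM among the markers, and KRT19, LGR5, CD9, SPP1, THBS1, ITGAV, THBS4, FHL2 and LEF1 in the lists.

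The genes whose 2 values lay nearest to those of PROM1, by Euclidean distance over the 2 arrays, were TTR, CDH2, DKK1, NES and MICAL2. TTR, the thyroxine and retinol carrier, lay at a distance of 0.17, with 5.92 with miR-130b and 9.26 with empty vector. The N-cadherin gene CDH2 lay at 0.35, with 5.91 in miR-130b and 8.88 in empty vector, and the Wnt inhibitor DKK1 at 0.38. NES, which encodes the intermediate filament nestin, had 5.94 in miR-130b and 8.80 in empty vector, and MICAL2, an actin-oxidising enzyme, had 5.78 in miR-130b and 8.86 in empty vector. The likeness is of values over 2 arrays only.

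**Figure D4:**
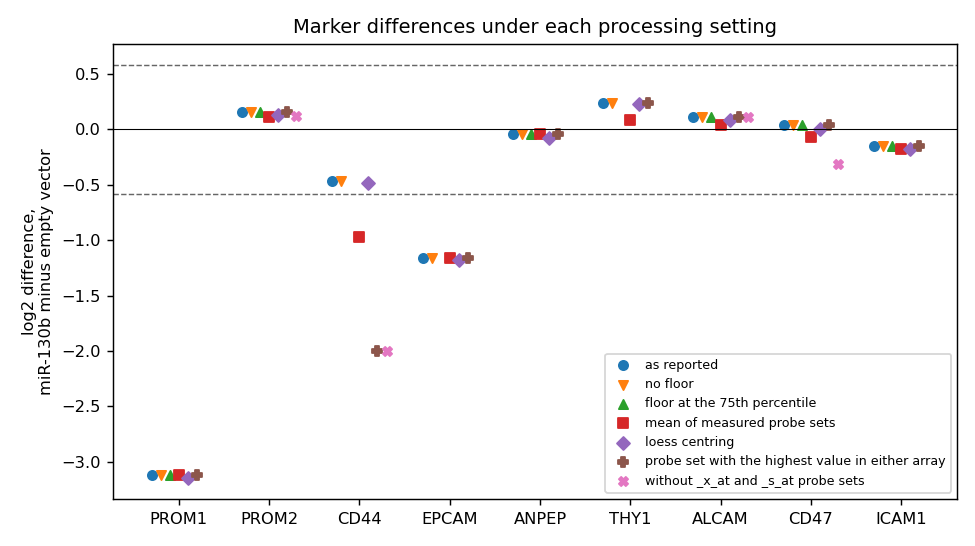
Log2 difference, miR-130b minus empty vector, of each marker under the reported setting and 6 alternatives (symbols), with dashed lines at 1.5-fold; a missing symbol means that no probe set of the gene was left. PROM1 stays near -3.12 and EPCAM near -1.16 wherever they are measured, but each has 1 probe set, so only loess centring could move them. CD44 runs from -2.00 to -0.47 and CD47 from -0.32 to 0.04.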

How the data were processed

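The authors deposited log2 expression values of 54675 probe sets for 2 arrays, 1 per condition. RMA is named in the submitters' processing notes, without a version, and neither its settings nor which arrays were normalized jointly is stated there. Column medians were 4.88 in miR-130b and 4.89 in empty vector, and the number of arrays limits the precision. Gene names came from GEO's platform annotation, updated by Entrez identifier to RefSeq symbols. Of 54613 non-control probe sets 41091 had 1 symbol, 1801 several and 11721 none, and those with several named no gene. The members, lists and tests were chosen with earlier results of these data known. For each probe set the empty vector value was subtracted from the miR-130b value, and a gene took its brightest measured probe set. Named genes were all members, up to 4 genes per list by absolute difference, and the 5 genes nearest to PROM1. The computation was tested on simulated data. Other settings tried were the floor removed or set at the 75th percentile, the mean of measured probe sets, no suffixed probe sets, loess centring (span 0.3) and, added after seeing the data, the probe set with the highest single value. Sequences came from RefSeq (GRCh38.p14). Tools were Python 3.11.15, numpy 2.4.6, pandas 2.3.3, statsmodels 0.14.6 and matplotlib 3.10.9.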

Additional observations from a re-analysis of the deposited data

How the results depend on the processing

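No paired analysis was possible because each condition has 1 array. No replicate could be left out for the same reason. A change was counted when a marker's difference moved by more than the pooled SD of 0.20 between probe sets of a gene. Of 46 recomputed marker differences, 42 moved by less. PROM1 and EPCAM have 1 probe set each, so only loess centring could move them, and some of the 42 were fixed in this way. CD44 had -0.97 with the mean of measured probe sets, and -2.00 both without the probe sets suffixed _x_at and _s_at and with the probe set of the highest single value, a choice added after seeing the data. CD47 had -0.32 without the suffixed probe sets. The number of markers at least 1.5-fold lower was 2 as reported, 3 with the mean of probe sets or the highest single value, and 1 with the floor at the 75th percentile (6 markers left) or without suffixed probe sets (4 left, PROM1 and EPCAM not among them). With the floor at the 75th percentile, 192 of 8277 genes passed 1.5-fold downward and 16 upward, against 356 and 39 of 13260. Dim probe sets limit what EPCAM, CD44 and THY1 can show. Of 108 recomputed differences of the 20 other named genes, 102 moved by less than that SD and 0 turned sign beyond 1.5-fold. Some of these genes, such as TTR and DKK1, also have 1 probe set, which only loess centring could move. LGR5 had -0.28 without a floor.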

Other observations

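Further surface markers of the lists were looked at after their values were seen. CD24, a mucin-like glycoprotein also used to enrich liver tumour-initiating cells, was lower with miR-130b in all 6 probe sets, by differences from -0.40 to -0.16. Its probe set 209772_s_at had 11.31 with miR-130b and 11.71 with empty vector. DLK1, a surface protein of hepatoblasts, has 2 probe sets. Probe set 209560_s_at had 4.12 in miR-130b and 5.75 in empty vector, a difference of -1.63, but it passed the floor through the empty vector array only and so had to be lower. Probe set 235600_at, above the floor in both arrays, had 5.46 in miR-130b and 5.01 in empty vector, a difference of 0.44. THBS1, the CD47 ligand, was lower in 6 of 7 probe sets, 3 of the 6 below the floor in both arrays. The exception, 215775_at, also lay below the floor, with 4.10 in miR-130b and 3.99 in empty vector. Of the 41091 probe sets with 1 gene symbol, 44.5% were lower. The CD24 and THBS1 tallies are not of independent values, because the probe sets measure RNA of the same gene.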
